A study of Mus musculus with 74 samples.

Results

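The genes described here are 54 genes that unstimulated RAW264.7 macrophages expressed and that stood at least 8-fold lower in both edited derivatives of these cells, line 3205 and line 264. Before stimulation 11 of them in line 3205 and 8 in line 264 still stood at 5% of RAW264.7 or more. They were chosen from measured values. The mean of the 2 unstimulated libraries plus 1 had to be at least 8-fold below that of RAW264.7 in each edited line, and the RAW264.7 mean had to be at least 100 normalized reads. Of 24851 genes listed, 10349 had such a RAW264.7 mean, 98 of these met the ratio in line 3205 and 147 in line 264, and 66 met it in both. From the 66, 12 were left out by name: the edited gene H3f3a, Cd36, Msr1, Lipg, Ctsk, Lyz1, Klf4, Slc30a4 and 4 zinc finger genes, of which Zfp334 is an example. Just inside the limit stood Col18a1, Dner and Bahcc1, at ratios of 0.1247, 0.1243 and 0.1211, and just outside Nptxr, Clec4a2 and Cd63, at 0.1301, 0.1491 and 0.1607. The lowest RAW264.7 means inside were those of Trim47, Fam149a and Sema6d (104.4, 106.8 and 117 normalized reads), and the highest outside those of Dagla, Cd59a and Zbtbd6 (94.3, 93.8 and 91). A normalized read is a read count divided by the size factor of its library. The loss before stimulation is therefore a property of the choice, and it is given as a description. What was measured on other libraries is the level of the 54 genes at 60 and 120 min of lipopolysaccharide (LPS), a bacterial cell wall component that macrophages sense.

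RAW264.7 is a mouse macrophage-like line grown from tumour ascites. The series describes hypomorphic RAW264.7 lines and double knockout lines made by CRISPR editing of H3f3a and H3f3b, the genes that encode the replacement histone H3.3. The labels do not say which description belongs to line 3205 and which to line 264, or whether each line is 1 clone. The 18 RNA libraries comprise line 3205, line 264 and unedited RAW264.7, each with 2 libraries at 0, 60 and 120 min. H3f3a stood at 37.5 to 76.2 normalized reads in line 3205 and at 172 to 236 in line 264, against 2055 to 3109 in RAW264.7 (6 libraries each). H3f3b stood at 7177 to 13284 in line 3205, 5642 to 17765 in line 264 and 13623 to 34155 in RAW264.7, so its RNA was present in every library. The libraries held 13084927 to 53860392 reads. No label states the dose of LPS for the lines. Separate cultures are not named for the 2 libraries of a group, so the p-values cover the spread of these libraries alone, which may be technical. One RAW264.7 library, replicate 2 at 60 min, was the shallowest, and 1 read was worth 2.64 normalized reads there, against 0.623 to 1.48 in the other 17.

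H3.3 is placed into chromatin outside DNA replication, at active genes, enhancers and some silent repeats, and is the main supply of histone H3 for nucleosome exchange in cells that have stopped replicating DNA. Macrophages keep a set of genes for lipid transport, adhesion, chemokine presentation and prostaglandin sensing switched on before they meet a stimulus, and LPS changes some of these within the first hours. The members are ordered below by the part of the cell their products work in. All 10 macrophage markers, Csf1r and Cd68 among them, averaged at least 10 normalized reads in each line. Their summed level was 160151 to 218771 in line 3205 and 139277 to 239455 in line 264, against 195720 to 292031 in RAW264.7. Of the fibroblast markers none averaged 10, with a sum of at most 3.5 in any library. The neutrophil list summed to 1672 to 2447 in line 3205 and 1755 to 2534 in line 264, against 125 to 195 in RAW264.7. Nearly all of that was Csf3r, the receptor for granulocyte colony-stimulating factor, at 1650 to 2417, 1750.0 to 2524 and 115 to 190.1 in that order, while S100a9 and Ngp were at 0 in line 3205 and RAW264.7. Of the other marker lists the dendritic cell list summed to 76.1 to 207.7, 72.7 to 164 and 111 to 402 in the same order. The osteoclast list summed to 3236 to 7423, 1425 to 2023 and 1962 to 6105. The B cell list summed to 2693 to 4384, 4758 to 6019 and 6703 to 11031, the mast cell list to 82.5 to 222, 372 to 1429 and 29.4 to 1048, and the T and NK cell list to 119 to 231, 112 to 202 and 104 to 250.4. The erythroid and megakaryocyte list summed to 49 to 63.2, 9.7 to 25.7 and 44.9 to 70.7. In these lists few measured markers averaged at least 10 normalized reads. They were 3, 2 and 2 of 7 for B cells in the same order, and 1 of 3 for mast cells and 1 of 5 for T and NK cells in each line. For dendritic cells they were 3 of 7 in each line, and for osteoclasts 4, 3 and 5 of 6. A sum therefore does not stand for its whole list. The part of the differences between these sums in the results below was not tested.

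For 38 of the 54 genes the RefSeq promoter table of the same build (mm10) held a sequence, and the 250 bases before each listed start were searched for 8 short motifs on both strands. The 120 bases before the listed start are printed for 5 of them, 3 because Ptger4, Gja1 and Kitl kept more RNA in line 3205 than in line 264, and 2 because Ica1 and Tfec were all but absent from both. By the gene annotation the Kitl stretch lies inside the gene (100015615 to 100100416). Those of Ica1 and Tfec partly overlap their genes, whose annotated ends are 8778540 and 16898464. Capitals mark a match to a PU.1 core, AP-1 site, TATA box, GC box, CRE or E-box on either strand, with the letters of each given after the sequences.
Ptger4, chr15:5244188-5244307, minus strand: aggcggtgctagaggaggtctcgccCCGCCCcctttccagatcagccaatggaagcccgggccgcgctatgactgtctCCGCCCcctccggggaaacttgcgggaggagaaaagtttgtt
Gja1, chr10:56377180-56377299, plus strand: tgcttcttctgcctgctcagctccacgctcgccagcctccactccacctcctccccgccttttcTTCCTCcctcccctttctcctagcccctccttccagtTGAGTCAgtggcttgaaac
Kitl, chr10:100015701-100015820, plus strand: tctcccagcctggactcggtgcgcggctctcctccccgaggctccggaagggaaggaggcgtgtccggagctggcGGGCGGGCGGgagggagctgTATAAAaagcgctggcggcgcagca
Ica1, chr6:8778485-8778604, minus strand: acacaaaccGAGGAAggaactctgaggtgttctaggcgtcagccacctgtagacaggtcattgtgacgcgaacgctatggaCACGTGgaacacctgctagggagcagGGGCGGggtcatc
Tfec, chr6:16898442-16898561, minus strand: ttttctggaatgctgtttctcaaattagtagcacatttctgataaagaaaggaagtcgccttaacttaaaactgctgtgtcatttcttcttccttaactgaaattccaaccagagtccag
Ptger4 carried a pair of GC boxes, Kitl overlapping GC boxes next to a TATA box, Gja1 a PU.1 core and an AP-1 site, and Ica1 a PU.1 core, an E-box and a GC box. Tfec had no match among these 6 motifs in its 120 bases. Over the 38 promoters the PU.1 core (GAGGAA) was found in 18.4%, against 22.4% of the 7522 promoters of genes with a RAW264.7 mean of at least 100 and 23.1% of all 27025. The GC box (GGGCGG) was found in 55.3%, against 61.6% and 32.9% in the same reference sets. The AP-1 site (TGANTCA) was found in 2.6%, against 3.9% and 6.9%. The E-box (CACGTG) was found in 7.9%, against 9% and 6%. The TATA box (TATAAA) was found in 5.3%, against 5.6% and 13%. A C/EBP site (TTNNGNAA) was found in 31.6%, against 27.7% and 36.9%. The CRE (TGACGTCA) and an interferon response motif were found in 0 of the 38, and in 3% and 2.6% of the promoters of expressed genes. A ratio of observed to expected CpG of at least 0.6 was found in 19 of the 38, against 74.0% of the promoters of expressed genes and 34.5% of all. Motifs may overlap, so these shares are not independent. A match is a description of letters and not evidence of binding.

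At 60 min all 54 genes were lower in both edited lines than in RAW264.7, and at 120 min all 54 in line 264 and 53 in line 3205 (limma, adjusted p below 0.05). Among all genes tested 6.46% were called lower at 60 min in line 3205 and 6.8% in line 264, and at 120 min 5.99% and 6.13%. The median log2 fold change of the 54 was -6.64 in line 3205 and -7.11 in line 264 at 60 min, and -6.65 and -7.39 at 120 min, where the median of all genes lay between 0.005 and 0.025. Every member passed the filter on low values. Some, such as Fam149a, did so through RAW264.7 alone, while others, such as Bahcc1, were also above it in the edited lines. Both comparisons share the RAW264.7 libraries, and the members were chosen on the unstimulated libraries of the same 3 lines, so a low level in both lines at 0 min is part of the choice. These unstimulated libraries also entered the SE of the main fits. For every one of the 54 genes the libraries of each edited line lay below both RAW264.7 libraries at 60 and at 120 min. Over all genes 27.8% did so in line 3205 and 27.5% in line 264 at 60 min, and 26% and 26.3% at 120 min. The exception to the limma calls was Ptger4 in line 3205 at 120 min. It was called with a replicate block, a limma fit that pairs libraries of the same number (adjusted p = 0.0103). By the adjusted p of the authors' deposited table fewer members were called lower, 48 at 60 min and 47 at 120 min in line 3205, and 49 at both times in line 264. By DESeq2 on the recovered reads, Ptger4 was called in line 3205 at 120 min (adjusted p = 0.0305), while the calls of Sema6d (0.239 to 0.365) and Tmeff1 (0.11 to 0.154) were lost in both lines at both times and that of Ppic in line 264 at 120 min (0.0698). With only the groups compared, the limma call of Maf was lost in line 264 at 60 min (adjusted p = 0.0574). At 120 min that fit lost Col18a1, Dner and Trim47 in both lines, Magohb in line 264, and Gja1 and Aldh1l1 in line 3205 (limma adjusted p 0.0517 to 0.0861). Without the intensity trend or without the filter, Magohb in line 264 and Dner and Gja1 in line 3205 were not called at 120 min (limma adjusted p 0.0558 to 0.0792).

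**Figure D1:**
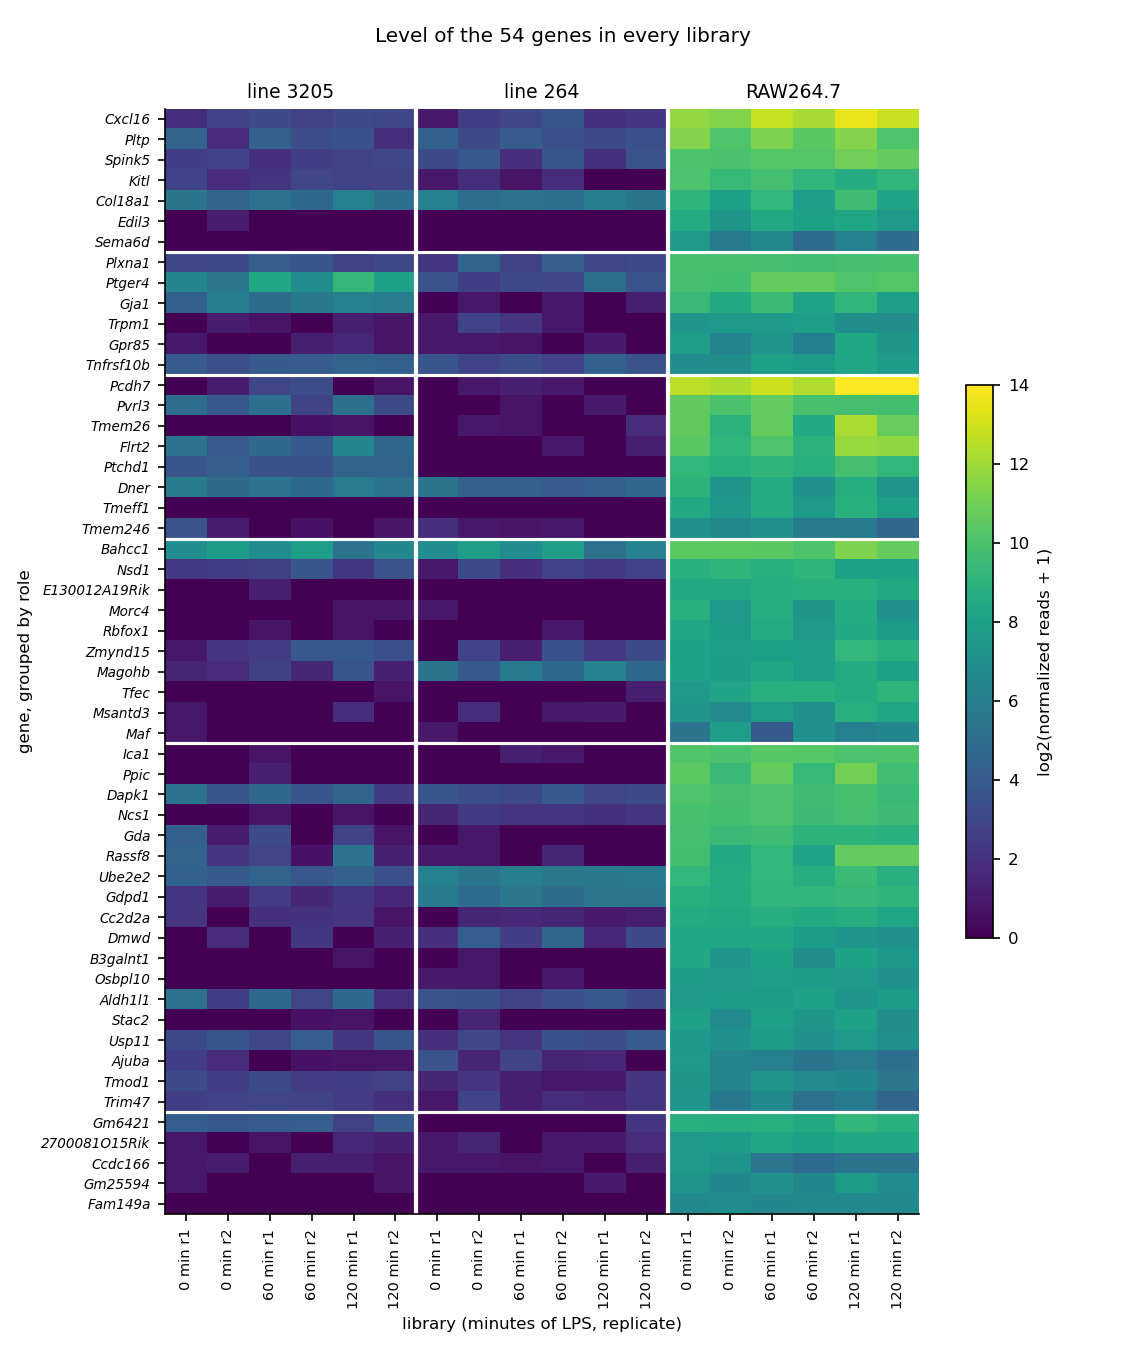
Level of each of the 54 genes (rows, grouped by role) in each of the 18 libraries (columns: minutes of LPS and replicate, for line 3205, line 264 and RAW264.7), coloured by log2(normalized reads + 1). At each time the RAW264.7 columns are brighter than those of both edited lines for all 54 genes. Averaged over the libraries of a line, Bahcc1 is the brightest member in line 264, and Ptger4, then Bahcc1, in line 3205. Ptger4 in line 3205 is brighter at 60 and 120 min than at 0 min.

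The reads that remained in the edited lines differed between members. At 60 min, 11 genes had 0 reads in both libraries of line 3205 and 15 in line 264, and at 120 min 9 and 20. A further 13 and 15 genes had 1 to 3 reads at 60 min, and 14 and 13 at 120 min. The median gene stood at 0.578% of its RAW264.7 level in line 3205 and 0.229% in line 264 at 60 min, and at 0.599% and 0.171% at 120 min. Fam149a, Sema6d and Tmeff1 had 0 reads in all 12 libraries of the edited lines. At the other end 3 genes in line 3205 and 1 in line 264 stood less than 8-fold below RAW264.7 at 120 min, and 2 in each line at 60 min. At 60 min these were Bahcc1 and Ptger4 in line 3205 and Bahcc1 and Magohb in line 264. At 120 min they were Ptger4, Dner and Gja1 in line 3205 and Magohb in line 264. In bulk RNA, fewer cells that express a gene and less RNA per cell cannot be told apart.

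**Figure D2:**
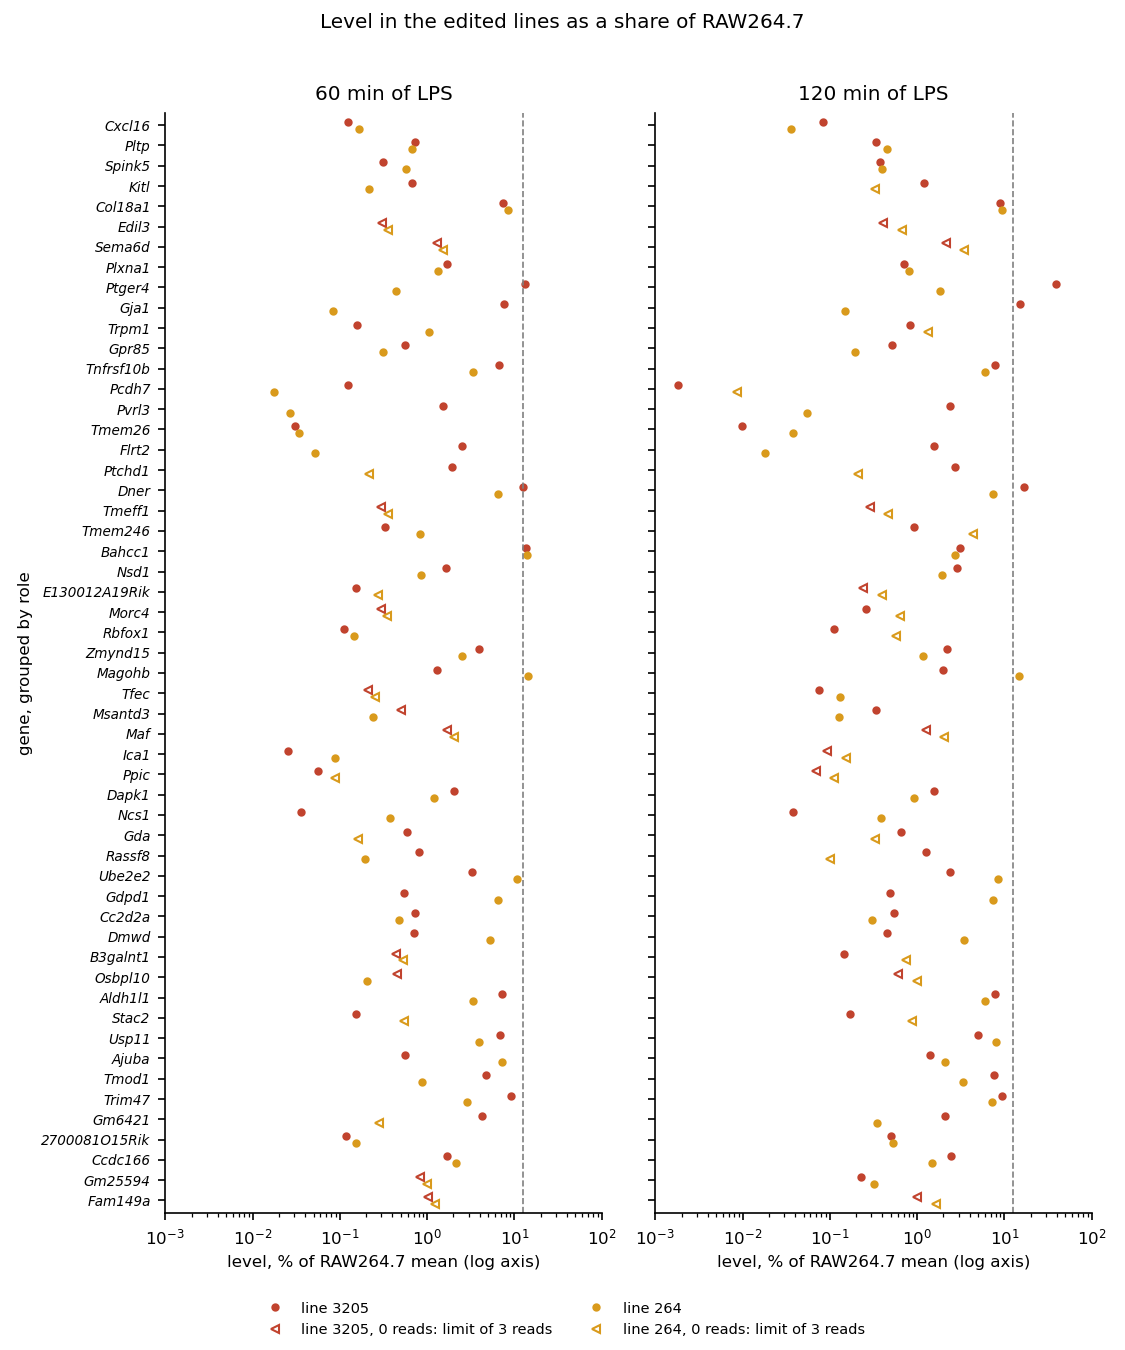
Level of each gene in line 3205 and line 264 as a percentage of the RAW264.7 mean at the same time (log axis), at 60 and 120 min, with genes in rows grouped by role. Filled circles are measured shares, open triangles are the upper limit that 3 reads allow where there were 0 reads, and the dashed line is the 8-fold limit. At 60 min 33 genes in line 3205 and 37 in line 264 were under 1%, those with 0 reads counted, and Ptger4 in line 3205 reaches 38.7% at 120 min.

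The ligands and secreted proteins numbered 7, and all 7 were called lower in both lines at both times. Cxcl16, a membrane-bound chemokine that binds Cxcr6 and oxidised lipoprotein, was among the strongest lost genes. It stood at 8.6 and 5.61 normalized reads in line 3205, with 6.95 and 12.1 in line 264 at 60 min, against 6995 and 4539 in RAW264.7. At 120 min it stood at 8.39 and 6.94 in line 3205, with 2.95 and 3.67 in line 264, against 11282 and 7319 in RAW264.7. Unstimulated levels were 2.57 and 5.98 in line 3205, 0.91 and 5.13 in line 264 and 3461 and 2579.8 in RAW264.7, so the RAW264.7 libraries at both LPS times lay above the unstimulated ones while every library of the edited lines stayed under 13 normalized reads. The limma log2 fold change was -9.47 ± 0.58 (adjusted p = 6.21e-06) at 60 min in line 3205 and -9.11 ± 0.58 (adjusted p = 6.02e-06) in line 264. By reads the level at 120 min was 1202-fold lower in line 3205 (95% counting interval 801 to 1897) and 2830.0-fold lower in line 264 (1300.0 to 7713). Cxcl16 lies on chromosome 11, 70454389 to 70459984 (mm10), and overlaps the member Zmynd15, and the strand used in counting is not given, so reads in the overlap cannot be assigned between them.

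Pltp, the phospholipid transfer protein of lipoprotein particles, stood at 19.2 and 8.73 in line 3205, with 16 and 9.5 in line 264 at 60 min, against 2479 and 1368 in RAW264.7. At 120 min the levels were 10.3 and 2.78 in line 3205, with 7.86 and 9.78 in line 264, against 2739.6 and 1127 in RAW264.7. The groups did not overlap, and RAW264.7 replicate 1 was the higher at each time. Spink5, an inhibitor of serine proteases, had a range over the 6 libraries of 2.65 to 6.94 (median 5.56) in line 3205 and 2.78 to 13.7 (median 9.6) in line 264, against 1006 to 1983 (median 1221) in RAW264.7. Kitl, the stem cell factor that binds Kit, stood at 5.81 and 6.25 in line 3205, with 0 and 0 in line 264 at 120 min, against 412 and 587 in RAW264.7. Line 264 had 0 reads at that time and line 3205 had 9 in each library. Edil3, a secreted integrin ligand, was at 0 in 5 of the 6 libraries of line 3205 and in all 6 of line 264, against 169 to 384 (median 271) in RAW264.7. Sema6d, a transmembrane semaphorin, was at 0 throughout in both lines, against 29 to 182 (median 59.3) in RAW264.7, with the lowest mean at 120 min. Col18a1, the collagen XVIII chain that yields endostatin, was the least reduced of the 7. It stood at 37.7 and 24.9 in line 3205, with 37.5 and 33.7 in line 264 at 60 min, against 623 and 224 in RAW264.7, and its 0 min ratio of 0.1247 in line 264 was the closest to the limit among the members. Its calls at 120 min were lost without RAW264.7 replicate 1, in line 3205 (limma adjusted p = 0.0702) and in line 264 (0.0849), and without replicate 2 of the edited line (0.0584 and 0.063).

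The receptors and channels numbered 6, and all were called lower in both lines, save Ptger4 in line 3205 at 120 min. Ptger4, the prostaglandin E2 receptor EP4 that raises cyclic AMP, lies on chromosome 15, 5233399 to 5244187. It stood at 80.5 and 46.6, 319 and 115, and 650.3 and 261 in line 3205 at 0, 60 and 120 min. In line 264 the levels were 10.9 and 5.13, 7.65 and 6.91, and 32.4 and 11 at these times. In RAW264.7 they were 952 and 866, 1683 and 1613, and 1151 and 1204. Each line 3205 replicate was thus higher at each later time, although replicate 2 at 120 min lay below replicate 1 at 60 min, and both line 264 libraries were highest at 120 min, while RAW264.7 was highest at 60 min. In line 3205 the gene reached 13.2% of the RAW264.7 level at 60 min and 38.7% at 120 min. The difference from RAW264.7 was -3.09 ± 0.48 (adjusted p = 0.00209) at 60 min and -1.51 ± 0.57 (adjusted p = 0.116) at 120 min in line 3205, and with the replicate block the adjusted p at 120 min was 0.0103. In line 264 it was -7.64 ± 0.48 (adjusted p = 6.02e-06) at 60 min and -5.88 ± 0.57 (adjusted p = 0.000114) at 120 min. The log2 difference from 0 min was 1.63 ± 0.48 and 2.73 ± 0.57 in line 3205, -0.05 ± 0.48 and 1.23 ± 0.57 in line 264, and 0.86 ± 0.48 and 0.38 ± 0.57 in RAW264.7 at 60 and 120 min. These are descriptions with no test, because the 0 min libraries chose the gene. The change between 60 and 120 min compares means of other libraries, although the 0 min libraries enter its SE. This change was 1.10 ± 0.57 (adjusted p = 0.596) in line 3205, and its difference from RAW264.7 was 1.58 ± 0.81 (adjusted p = 1) by limma.

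**Figure D3:**
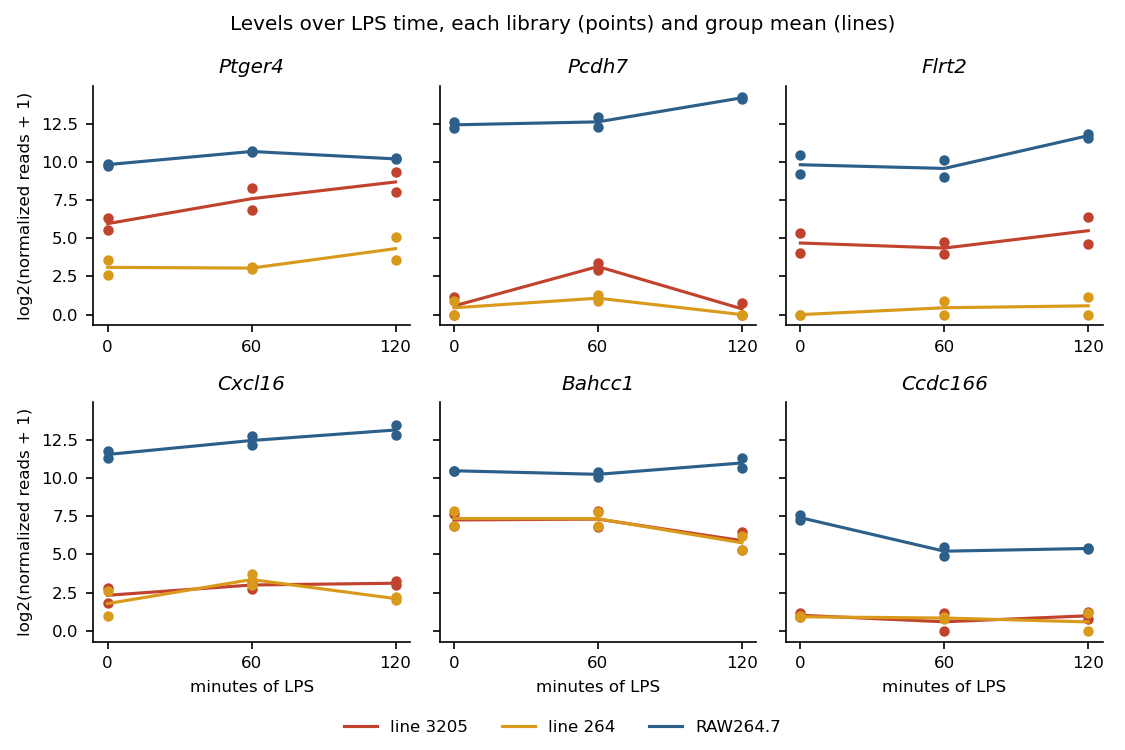
Level of 6 members over LPS time (0, 60 and 120 min) as log2(normalized reads + 1), with 1 point per library and lines through the group means for line 3205, line 264 and RAW264.7. In line 3205 the mean of Ptger4 is higher at each later time, Pcdh7 is above 6 normalized reads at 60 min only, and Bahcc1 is lower at 120 min than at 60 min in both edited lines while it is higher in RAW264.7.

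Gja1, the gap junction protein connexin 43, stood at 29.8 and 48.6 at 60 min and 66.5 and 56.9 at 120 min in line 3205. In line 264 it had at most 1 read in a library, and in RAW264.7 it stood at 745 and 290.4 at 60 min and 594 and 231 at 120 min. In line 3205 its call against RAW264.7 was lost without either line 3205 replicate or without RAW264.7 replicate 1 at 120 min (adjusted p = 0.109, 0.158 and 0.264), and without replicate 1 of either group at 60 min (0.0577 and 0.0664). Plxna1, the plexin A1 receptor for semaphorins such as Sema6d, ranged over 5.81 to 17.9 (median 8) in line 3205 and 3.64 to 21.4 (median 7.72) in line 264, against 826 to 958 (median 951) in RAW264.7. This receptor and its ligand Sema6d were thus both among the members. Tnfrsf10b, the death receptor for TRAIL, stood at 20.6 and 19.4 in line 3205, with 19.6 and 11 in line 264 at 120 min, against 312 and 206 in RAW264.7. It was partly kept, at 7.75% of RAW264.7 in line 3205 and 5.92% in line 264. Gpr85, an orphan receptor, ranged over 0 to 1.94 (median 0.775) in line 3205 and 0 to 0.982 (median 0.775) in line 264, against 66 to 337 (median 163) in RAW264.7. Trpm1, a cation channel known from retinal bipolar cells and melanocytes, ranged over 0 to 1.29 (median 0.678) and 0 to 5.99 (median 0.887) in these lines, against 119 to 229.7 (median 173) in RAW264.7.

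The adhesion and other membrane proteins numbered 8, and all 8 were called lower in both lines at both times. They held the most abundant member, Pcdh7, a protocadherin on chromosome 5, 57716145 to 58133236. It stood at 6.61 and 9.35 in line 3205, with 1.39 and 0.864 in line 264 at 60 min, against 7872 and 5088 in RAW264.7. At 120 min it stood at 0 and 0.694 in line 3205, with 0 and 0 in line 264, against 19674 and 18090.2 in RAW264.7. Before LPS it stood at 0 and 1.2 in line 3205, 0 and 0.855 in line 264 and 6268 and 4879 in RAW264.7. Both RAW264.7 libraries at 120 min were thus above both 60 min libraries, while line 3205 had its most reads at 60 min alone. In line 3205 Pcdh7 fell between 60 and 120 min, by limma -2.77 ± 0.46 (adjusted p = 0.00688), and in RAW264.7 the change was 1.58 ± 0.46 (adjusted p = 0.0562), or 0.02 with the replicate block. The difference of the changes, line 3205 minus RAW264.7, was -4.35 ± 0.65 (adjusted p = 0.0345), and line 264 minus RAW264.7 was -2.65 ± 0.65 (adjusted p = 0.412). The fall in line 3205 rests on 25 reads at 60 min and 1 at 120 min, and it was not called without line 3205 replicate 2 at 60 min (adjusted p = 0.0812) or replicate 1 at 120 min (0.0925), or with only the groups compared (0.304). Among all genes 1.19% were called lower at 120 min in line 3205, and 3.42% higher in RAW264.7.

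Pvrl3, the adhesion molecule nectin 3, stood at 33.1 and 6.23 in line 3205, with 0.695 and 0 in line 264 at 60 min, against 1599 and 985 in RAW264.7. At 120 min the levels were 34.8 and 8.33, 0.982 and 0, and 936 and 855 in these 3 lines, so line 3205 kept a remnant in both of its libraries and line 264 did not. Flrt2, a guidance and adhesion protein with leucine-rich repeats, followed the same order. It stood at 81.9 and 23.6 in line 3205, with 0 and 1.22 in line 264 at 120 min, against 3673 and 3107 in RAW264.7. At 60 min it stood at 26.5 and 14.3 in line 3205, with 0 and 0.864 in line 264, against 1129.7 and 515 in RAW264.7. The RAW264.7 change between 60 and 120 min was 2.15 ± 0.69 (adjusted p = 0.0863), and 0.0265 with the replicate block. Tmem26, a transmembrane protein known as a surface marker of beige fat cells, ranged over 0 to 0.645 (median 0) in line 3205 and 0 to 2.45 (median 0.348) in line 264, against 372 to 4839.9 (median 1603) in RAW264.7. Its RAW264.7 mean was highest at 120 min, at 4839.9 and 1703. Ptchd1, a patched-domain protein, was at 0 in all 6 libraries of line 264, and ranged over 9.92 to 21.3 (median 15) in line 3205, against 462 to 928 (median 599) in RAW264.7. Dner, a transmembrane protein with EGF repeats that can bind Notch, was partly kept. It stood at 58.7 and 36.8 in line 3205, with 18.7 and 23.2 in line 264 at 120 min, against 418 and 151 in RAW264.7. Its call in line 3205 at 120 min was lost without any 1 of 3 libraries, RAW264.7 replicate 1 and either line 3205 replicate (limma adjusted p = 0.305, 0.0896 and 0.214), and at 60 min without the same 3 (0.155, 0.0645 and 0.122). In line 264 it was lost without RAW264.7 replicate 1, at 60 min (0.0516) and at 120 min (0.0828). Tmeff1, a membrane protein with follistatin domains, was at 0 in both lines, against 177 to 473 (median 298) in RAW264.7. Tmem246, which adds a sugar to GPI anchors, stood at 0 and 0.694 in line 3205, with 0 and 0 in line 264 at 120 min, against 50.6 and 24 in RAW264.7, where it was lowest at that time.

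The nuclear and RNA-binding proteins numbered 10, and all 10 were called lower in both lines at both times. Nsd1, a methyltransferase of lysine 36 on histone H3, stood at 5.29 and 11.8 in line 3205, with 2.78 and 6.05 in line 264 at 60 min, against 459 and 581 in RAW264.7. At 120 min it stood at 3.87 and 11.1 in line 3205, with 3.93 and 6.11 in line 264, against 261 and 265.1 in RAW264.7, with no overlap at either time. The limma log2 fold change at 60 min was -5.85 ± 0.70 (adjusted p = 0.000422) in line 3205 and -6.65 ± 0.70 (adjusted p = 0.00017) in line 264. Bahcc1, a chromatin protein with a BAH domain, had the highest level of all members in line 264 and the second after Ptger4 in line 3205, averaged over 6 libraries. It stood at 114 and 202, 110.4 and 225, and 38.7 and 88.9 in line 3205 at 0, 60 and 120 min. In line 264 it stood at 116 and 227, 117 and 219, and 38.3 and 73.4, and in RAW264.7 at 1424 and 1424, 1373 and 1069, and 2523 and 1635. Both edited lines were therefore at about the same level at each time and lowest at 120 min, where RAW264.7 was highest. The change between 60 and 120 min was -1.41 ± 0.51 (adjusted p = 0.258) in line 3205 and -1.58 ± 0.51 (adjusted p = 0.169) in line 264, and with the replicate block the adjusted p was 0.0471 and 0.0253. In both edited lines replicate 2 was higher than replicate 1 at every time. Bahcc1 overlaps the annotated gene Gm11772, which was also called lower in both lines.

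Epop, listed in the tables as E130012A19Rik, is a protein of Polycomb and Elongin complexes. It had reads in 1 of the 12 libraries of the edited lines, against 349 to 467 (median 394) in RAW264.7. Of the transcription factor genes, Tfec, of the microphthalmia family and known from macrophages, had 1 read in each edited line in all, at 120 min, against 182 and 291, 449.8 and 481, and 389 and 543 in RAW264.7 at 0, 60 and 120 min. Maf, a basic leucine zipper factor of macrophages and lymphocytes, was at 0 in both lines at 60 and 120 min. In RAW264.7 Maf stood at 40.3 and 220.0, 14.8 and 132, and 69.3 and 90.9 at the 3 times, so replicate 2 was above replicate 1 at each time, in the opposite sense to most members. Rbfox1, a splicing factor, ranged over 0 to 0.661 (median 0) in line 3205 and 0 to 0.864 (median 0) in line 264, against 190.1 to 396 (median 254) in RAW264.7. Magohb, a core protein of the exon junction complex, was nearly gone in line 3205 and partly kept in line 264. It stood at 5.29 and 1.87 in line 3205, with 55.6 and 25.1 in line 264 at 60 min, against 327 and 229.7 in RAW264.7. At 120 min it stood at 11.6 and 1.39 in line 3205, with 71.7 and 24.5 in line 264, against 399.6 and 259 in RAW264.7. Its near copy Magoh can share reads with it, and how such reads were counted is not given. At 120 min its call in line 264 was lost without line 264 replicate 2 (adjusted p = 0.255) or without either RAW264.7 replicate (0.227 and 0.107), and at 60 min without line 264 replicate 2 (0.0924) or RAW264.7 replicate 1 (0.0833). Zmynd15, a zinc finger protein known as a repressor in male germ cells, stood at 13.5 and 9.72 in line 3205, with 3.93 and 8.56 in line 264 at 120 min, against 606 and 453 in RAW264.7. Its call in line 3205 at 60 min was lost without line 3205 replicate 1 (limma adjusted p = 0.0841) or either RAW264.7 replicate (0.0626 and 0.0597). Msantd3, which has a Myb-like domain, ranged over 0 to 2.58 (median 0) in line 3205 and 0 to 2.56 (median 0.432) in line 264, against 109 to 457 (median 187) in RAW264.7, where it was highest at 120 min. Morc4, a nuclear ATPase, ranged over 0 to 0.694 (median 0) and 0 to 0.91 (median 0) in these lines, against 135 to 441 (median 285) in RAW264.7.

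The intracellular signalling, structural and enzyme genes numbered 18, and all 18 were called lower in both lines at both times. Ica1, a vesicle-associated protein with a BAR domain, had reads in 1 of the 6 libraries of line 3205 and in 2 of line 264, all at 60 min, against 1017 to 1314 (median 1117) in RAW264.7. The limma log2 fold change was -9.97 ± 0.42 (adjusted p = 8.21e-07) in line 3205 and -9.26 ± 0.42 (adjusted p = 7.25e-07) in line 264 at 60 min. Ppic, cyclophilin C, had reads in 1 library of line 3205 and in 0 of line 264, against 676 to 2086 (median 1139.6) in RAW264.7. By reads it was at least 1446-fold lower in line 3205 and at least 888-fold lower in line 264 at 120 min, taking 3 reads over the group as the floor. Dapk1, the death-associated protein kinase, ranged over 4.17 to 37.7 (median 16.9) in line 3205 and 6.87 to 14.7 (median 8.98) in line 264, against 682 to 1121 (median 966) in RAW264.7. Ncs1, a neuronal calcium sensor, ranged over 0 to 0.661 (median 0) in line 3205 and 1.82 to 4.28 (median 3.47) in line 264, against 771 to 1059.9 (median 904) in RAW264.7. Gda, guanine deaminase, ranged over 0 to 18.8 (median 3.5) in line 3205 and 0 to 0.855 (median 0) in line 264, against 465 to 893 (median 612) in RAW264.7. Rassf8, a Ras-association protein, had a wide spread in line 3205, at 39.4 and 1.39 at 120 min, against 0 and 0 in line 264 and 1585 and 1672 in RAW264.7.

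Enzymes of ubiquitin transfer and removal were among the partly kept genes of this group. Ube2e2, a ubiquitin-conjugating enzyme, stood at 21.2 and 13.1 in line 3205, with 62.6 and 49.2 in line 264 at 60 min, against 612 and 428 in RAW264.7. Usp11, a deubiquitinase, stood at 3.87 and 11.8 in line 3205, with 8.84 and 15.9 in line 264 at 120 min, against 184 and 129 in RAW264.7. Trim47, a ubiquitin ligase, had the lowest unstimulated RAW264.7 mean of the members, 104. It stood at 4.52 and 2.78 in line 3205, with 1.96 and 3.67 in line 264 at 120 min, against 54.6 and 22.7 in RAW264.7, with a lower mean there than before LPS. Its calls at 120 min were lost without RAW264.7 replicate 1 or either replicate of the edited line (limma adjusted p 0.0755 to 0.206 in line 3205 and 0.0599 to 0.155 in line 264), and at 60 min in line 3205 likewise (0.0983 to 0.162). Gdpd1, a lysophospholipase D, stood at 4.63 and 1.87 in line 3205, with 46.6 and 30.2 in line 264 at 60 min, against 592 and 589 in RAW264.7. Ajuba, a LIM-domain scaffold, stood at 0 and 0.623 in line 3205, with 6.26 and 1.73 in line 264 at 60 min, against 68.3 and 42.2 in RAW264.7, which had 187 and 82.2 before LPS. Its call in line 264 at 60 min was lost without line 264 replicate 2 (adjusted p = 0.107) or RAW264.7 replicate 1 (0.0923). Aldh1l1, a folate enzyme, ranged over 2.78 to 36.8 (median 15.7) in line 3205 and 5.56 to 12.8 (median 9.88) in line 264, against 149 to 253 (median 197) in RAW264.7. Line 3205 replicate 1 was above replicate 2 for this gene at each time. Its calls were lost without single libraries, in line 264 at 120 min without any 1 of the 4 (limma adjusted p 0.0673 to 0.118), in line 3205 at 120 min without line 3205 replicate 2 or either RAW264.7 replicate (0.0786 to 0.116), and at 60 min without line 3205 replicate 2 (0.0787) or RAW264.7 replicate 2 (0.0629). Dmwd, a WD-repeat protein, ranged over 0 to 3.74 (median 0.694) in line 3205 and 1.96 to 23.3 (median 6.71) in line 264, against 145 to 322 (median 254) in RAW264.7. Its call in line 264 at 60 min was lost without line 264 replicate 1 (limma adjusted p = 0.12) or either RAW264.7 replicate (0.0994 and 0.0611). Tmod1, which caps the pointed ends of actin filaments, ranged over 4.36 to 8.56 (median 5.36) in line 3205 and 0.864 to 3.67 (median 1.6) in line 264, against 46.7 to 167 (median 99.4) in RAW264.7, and its call in line 3205 at 120 min was lost without RAW264.7 replicate 1 (0.061 by limma). The other 4, Cc2d2a of the ciliary transition zone, the globoside synthase B3galnt1, Osbpl10 and Stac2, stood between 0.147% and 0.722% of RAW264.7 wherever they had a read at 60 or 120 min.

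The last 5 genes had no role to give. Ccdc166 had lower levels with LPS in RAW264.7, at 191 and 149, 44.5 and 29, and 41.3 and 40.4 at 0, 60 and 120 min. In the edited lines it had at most 1.29 normalized reads in a library. Fam149a was at 0 throughout the edited lines, against 89.1 to 113 (median 101) in RAW264.7. The predicted genes were Gm6421, annotated as a pseudogene, Gm25594 and 2700081O15Rik. Gm25594 ranged over 0 to 0.856 (median 0) in line 3205 and 0 to 0.982 (median 0) in line 264, against 84.5 to 196 (median 121) in RAW264.7. 2700081O15Rik ranged over 0 to 1.94 (median 0.758) and 0 to 2.45 (median 0.946) in these lines, against 189 to 332 (median 284) in RAW264.7. Gm6421 was kept at 5.81 to 17.5 (median 15.9) in line 3205, had reads in 1 of the 6 libraries of line 264, and stood at 359 to 586 (median 432) in RAW264.7. Reads of a pseudogene may be shared with its parent gene.

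Line 3205 and line 264 were then compared with each other at 60 and 120 min. The means compared come from libraries that did not choose the members, but the unstimulated libraries that chose them entered the SE of each main fit. The median log2 fold change of the 54 was 0 at 60 min and 0.31 at 120 min, beside 0.018 and 0.004 for all genes. At 60 min 7 of the 54 genes were higher in line 3205 than in line 264 and 4 lower (limma, adjusted p below 0.05), where 5.45% and 4.7% of all genes were called. At 120 min 6 were higher and 3 lower, where 4.78% and 4.22% of all genes were called. Calls at both times, all in the same direction, were made for 8 genes, and 42 had a call at neither time. Of the 42, Fam149a, Sema6d and Tmeff1 had 0 reads in both lines, so no difference could be called, and others had few reads. Such genes also enter the median, and a missing call is not evidence that the lines are alike. Genes higher in line 3205 at either time numbered 8. Gja1 differed by 4.84 ± 0.69 (adjusted p = 0.00175) at 60 min and 5.39 ± 0.70 (adjusted p = 0.00121) at 120 min on the log2 scale. Ptger4 differed by 4.54 ± 0.48 (adjusted p = 0.000294) and 4.37 ± 0.57 (adjusted p = 0.00121) at these times. Flrt2 differed by 3.91 ± 0.64 (adjusted p = 0.00364) and 4.92 ± 0.69 (adjusted p = 0.00187), Ptchd1 by 3.45 ± 0.38 (adjusted p = 0.000385) and 4.46 ± 0.40 (adjusted p = 0.000114), and Pvrl3 by 3.59 ± 0.71 (adjusted p = 0.0101) and 3.70 ± 0.66 (adjusted p = 0.00742). Gm6421 at 4.14 ± 0.36 (adjusted p = 7.46e-05) and Pcdh7 at 2.07 ± 0.49 (adjusted p = 0.0251) were called at 60 min only, and Kitl at 2.81 ± 0.51 (adjusted p = 0.0078) at 120 min only.

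Genes lower in line 3205 than in line 264 at either time numbered 4. Gdpd1 differed by -3.26 ± 0.50 (adjusted p = 0.00244) at 60 min and -3.56 ± 0.46 (adjusted p = 0.00117) at 120 min. Ube2e2 differed by -1.68 ± 0.40 (adjusted p = 0.0258) and -1.83 ± 0.44 (adjusted p = 0.0309), and Ncs1 by -1.79 ± 0.45 (adjusted p = 0.0338) and -1.74 ± 0.46 (adjusted p = 0.044). Magohb differed by -3.18 ± 0.60 (adjusted p = 0.00841) at 60 min and -2.97 ± 0.81 (adjusted p = 0.0502) at 120 min. With the replicate block 5 more differences were called. At 120 min Rassf8 (adjusted p = 0.0254 by limma) and Gm6421 (0.0238) were higher in line 3205 and Magohb (0.00414) lower, and at 60 min Tmod1 (0.0241) was higher and Dmwd (0.0322) lower. At 60 min the calls of Pcdh7, Ncs1 and Ube2e2 were lost without any 1 of the 4 libraries compared (adjusted p 0.0789 to 0.153 for Pcdh7, 0.064 to 0.214 for Ncs1 and 0.0511 to 0.175 for Ube2e2). The call of Magohb at 60 min was lost without line 264 replicate 1 (0.0789) or line 3205 replicate 2 (0.0742), and that of Pvrl3 without line 264 replicate 2 (0.078) or line 3205 replicate 1 (0.0721). At 120 min Ncs1 was lost without any 1 of the 4 (0.0754 to 0.222). Ube2e2 at 120 min was lost without either line 264 replicate (0.111 and 0.143) or line 3205 replicate 2 (0.179), and Pvrl3 without line 264 replicate 2 (0.0576) or line 3205 replicate 1 (0.0537). The calls of Gja1, Ptger4, Flrt2 and Ptchd1, higher in line 3205, and of Gdpd1, lower there, held at both times without each library in turn. With only the groups compared, 6 calls were lost at 60 min, those of Gdpd1, Magohb, Ncs1, Pcdh7, Pvrl3 and Ube2e2 (limma adjusted p 0.0501 to 0.112). At 120 min the calls of Flrt2, Gdpd1, Kitl, Ncs1, Ptger4, Pvrl3 and Ube2e2 were lost in that fit (0.061 to 0.183 by limma). With pseudocount 5 limma did not call Kitl at 120 min (adjusted p = 0.0883) or Pcdh7 (0.058) and Pvrl3 (0.0575) at 60 min, and edgeR did not call Pcdh7 at 60 min (0.0542). Ncs1 rested on 1 read in line 3205 against 9 in line 264 at 60 min, and on 1 against 6 at 120 min. It was called at neither time by edgeR (adjusted p = 0.052 and 0.0888), by DESeq2 (0.123 and 0.17), or by limma with pseudocount 5 (0.228 and 0.268) or without the filter (0.0679 and 0.0841).

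**Figure D4:**
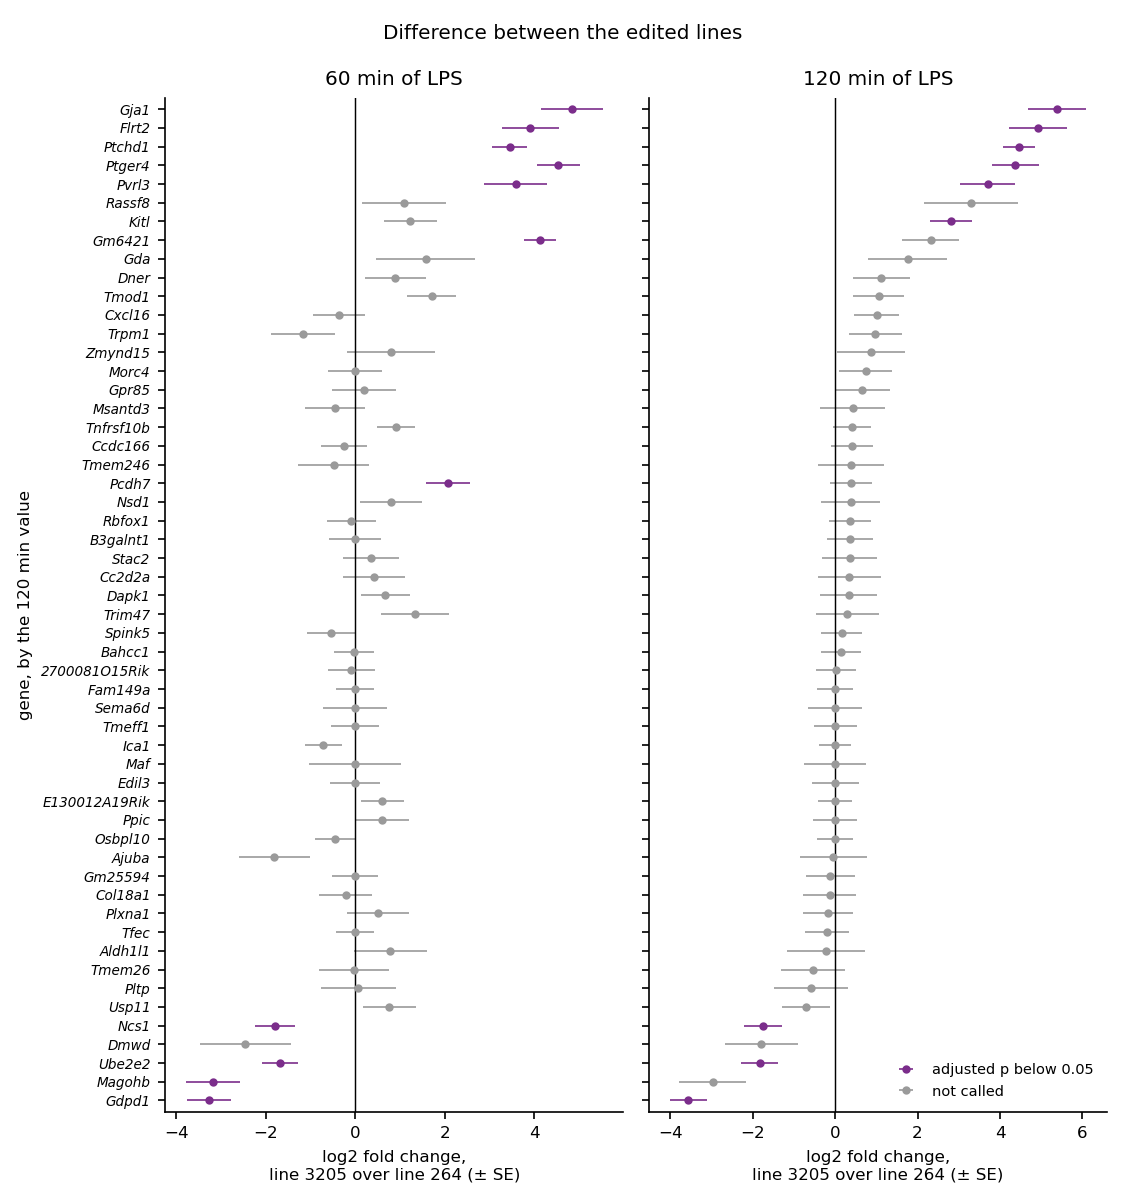
Limma log2 fold change of line 3205 over line 264 for each of the 54 genes at 60 and 120 min, with bars of the SE, ordered by the 120 min value. Purple points have an adjusted p below 0.05: Gja1, Flrt2, Ptchd1, Ptger4 and Pvrl3 are higher in line 3205 at both times and Gdpd1, Ube2e2 and Ncs1 lower.

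The members were then followed over LPS time within each line. In line 3205, 6 of the 54 genes had both libraries at 60 min above both unstimulated ones and 4 had both below, and at 120 min 8 and 4. Over all genes 13.8% were above and 15% below at 60 min, and 18.4% and 21.3% at 120 min. In line 264 the counts were 4 above and 5 below at 60 min and 2 and 7 at 120 min, where 14.3%, 16.3%, 21.3% and 22.8% of all genes were counted. In RAW264.7 they were 11 and 4 at 60 min and 17 and 9 at 120 min, where 20.8%, 21.3%, 27.1% and 27.8% were. Nothing is read from these counts, since the 0 min libraries chose the members. Those libraries do not enter the means compared between 60 and 120 min, but they enter the SE of the joint fit of all 18 libraries. In that fit limma called Pcdh7 in line 3205, and 0 of the 54 in line 264 or RAW264.7. At an unadjusted p below 0.05 line 264 had 2 higher and 6 lower, and RAW264.7 had 3 higher and 0 lower. Line 264 had 0 calls by edgeR and 1 lower by DESeq2, while RAW264.7 had 1 higher by edgeR and 2 by DESeq2. With the replicate block limma also called Bahcc1 lower in line 264 (adjusted p = 0.0253) and line 3205 (0.0471). In RAW264.7 that fit called Flrt2 (0.0265) and Pcdh7 (0.02) higher. In the main fit 1.09% of all genes were called higher and 1.19% lower in line 3205, 1.15% and 1.14% in line 264, then 3.42% and 3.88% in RAW264.7. For the difference of the changes from RAW264.7, 0.0576% of all genes were called lower for line 3205 and 0.0288% for line 264. The members with the highest log2 difference from 0 min in RAW264.7 at 120 min, as a description, were Flrt2, Pcdh7, Tmem26, Cxcl16 and Msantd3, and those with the lowest were Ccdc166, Tmem246, Ajuba, Trim47 and Sema6d.

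Within RAW264.7 the 2 replicates were not alike for these genes. Replicate 1 was higher than replicate 2 for 44 of the 54 at 0 min, 46 at 60 min and 44 at 120 min, and for 37 at all 3 times, while 4 had replicate 2 higher at all 3. The median log2 difference was 0.39, 0.56 and 0.52 at the 3 times. Over genes with an unstimulated RAW264.7 mean of at least 100, less those excluded by name, it was -0.009, 0.0042 and -0.0078. For 7 genes replicate 1 was over 2-fold higher at all 3 times. Col18a1 stood at 563 and 237 in replicates 1 and 2 at 0 min, and Tmem26 at 1672 and 372 at 60 min. In line 3205 replicate 1 was the higher for 24, 24 and 30 genes and replicate 2 for 16, 19 and 15 at 0, 60 and 120 min, with a median difference of 0, 0 and 0.23. In line 264 replicate 1 was the higher for 18, 18 and 11 genes and replicate 2 for 22, 21 and 23 at these times, with a median difference of 0 at each. The part of this difference in the results was not tested beyond the fits without a library and with the replicate block.

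**Figure D5:**
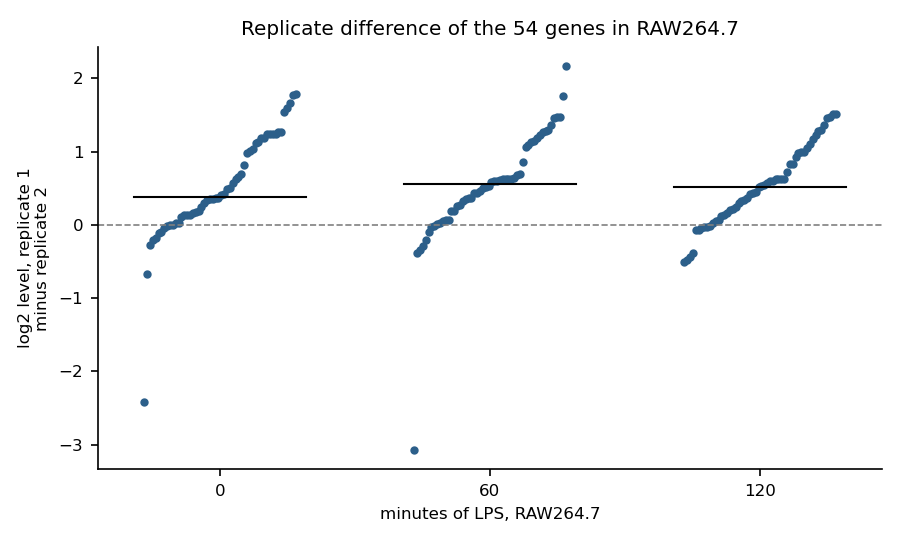
Difference of log2(normalized reads + 1) between RAW264.7 replicate 1 and replicate 2 for each of the 54 genes (points, sorted) at 0, 60 and 120 min, with the median as a black bar. The medians lie at 0.39, 0.56 and 0.52, above the dashed line of no difference, and the lowest point at 0 and 60 min is Maf.

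By position, 53 of the 54 genes matched the annotation (GRCm38.p6, the mm10 build), 52 of them protein coding, and lay on 19 chromosomes. Chromosomes 6 and 11 held 7 each, 13.2% of the matched members, against 4.78% and 8.56% of genes with a RAW264.7 mean of at least 100. Chromosome 17 held 0, against 5.14% of those genes. The 4 members Tmod1, Msantd3, Tmeff1 and Tmem246 lay within 3.56 Mb of chromosome 4, from 46038940 to 49597876. Between them stood 22 other genes with a RAW264.7 mean of at least 10 at 60 min, whose median log2 fold change was -0.06 in line 3205 and 0.02 in line 264. Of these 22, Mrpl50 was called lower in both lines. Msantd3 and Tmeff1 are neighbours, with 19178 bases between them, and Cxcl16 and Zmynd15 overlap. Members were longer than other expressed genes, with a median of 50.1 kb against 21.8 kb, and 24.5% of members against 10.3% of those genes exceeded 100.0 kb. The nearest expressed genes on either side, 102 in all, had a median log2 fold change at 60 min of -0.15 in line 3205 and -0.13 in line 264. Of the 102, 10.8% were called lower in line 3205 and 16.7% in line 264, against 8.04% and 8.39% of all genes with a RAW264.7 mean of at least 10 that are not members. In the other direction 5.88% were called higher in line 3205 and 9.8% in line 264, against 8.56% and 8.37%. Among them 4932441J04Rik beside Pcdh7 and Gm11772 beside Bahcc1 overlap the member, and their reads cannot be told apart from it.

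Only Gpr85 and Ptger4 of the 54 appeared in the authors' deposited table of primary bone marrow macrophages, which lists 193 genes. A second deposited table, of 195 genes, also holds both. In that authors' deposited table, labelled 120 min, the log2 fold change with LPS was 3.32 ± 0.16 for Gpr85 and 1.55 ± 0.08 for Ptger4. Both values are the authors' own. Both tables are short lists and not all genes, so their values and medians describe listed genes only. ChIP signal in the authors' deposited table of 193 genes comes from 1 library per target and time and was not tested. H3.3 signal in the authors' deposited table was 2.07 at 60 min, against 0.812 at 0 min, at Gpr85 and 2.18, against 1.21, at Ptger4, ratios of 2.55 and 1.81 where the median of the table was 1.96. In the authors' deposited table the signal at Gpr85 for H3.3 phosphorylated on serine 31 was 10.3 at 60 min, against 1.95 at 0 min, a ratio of 5.30, or 2.08 once divided by the H3.3 ratio, where the median of the undivided ratios was 3.83. In the authors' deposited table it was, at Ptger4, 2.75 at 60 min, against 1.88 at 0 min, a ratio of 1.46, and 0.806 once divided, which turns its direction. H3K27ac at Gpr85 in the authors' deposited table was 10.6 at 60 min, against 5.27 at 0 min, a ratio of 2.02 that became 0.791 once divided, and at Ptger4 1.47, against 1.79, with ratios of 0.821 and 0.454. H3K36me3 in the authors' deposited table was 3.09 at 60 min, against 1.83 at 0 min, at Gpr85, a ratio of 1.69 that became 0.661 once divided, and 4.58, against 4.72, at Ptger4, with ratios of 0.969 and 0.536.

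Genes were also read from 12 lists by function, 308 genes in all, of which 274 were measured at 60 min and 4 are members (Plxna1, Sema6d, Pltp and Col18a1). Whether the listed genes share pathways with the members was not tested. Counted once each, 48 genes of these lists were called lower in line 3205 and 70 in line 264 at 60 min, and 67 and 53 were called higher. As shares of the 274, 17.5% in line 3205 and 25.5% in line 264 were lower, where 6.46% and 6.8% of all genes were, and 24.5% and 19.3% were higher, where 8.95% and 8.46% of all genes were. The lists were chosen with earlier results of these data known, and 4 of their genes are members. Nothing is therefore read from the distance of these shares to those of all genes. Values for genes are limma log2 fold changes at 60 min, and a list's medians are set beside 0.025 and 0.012 at 60 min and 0.014 and 0.005 at 120 min for all genes in line 3205 and line 264. A gene given with a list is an example and need not follow the direction of most called genes of that list. Macrophage identity genes had 3 lower and 6 higher of 23 in line 3205 and 9 lower and 2 higher in line 264 at 60 min (medians -0.08 and -0.42), and 3 lower and 5 higher of 23 and 5 lower and 2 higher at 120 min (medians 0.08 and -0.53), with Csf3r, which is also the main gene of the neutrophil list above, at 3.56 ± 0.19 in line 3205 and 3.52 ± 0.19 in line 264. Pattern recognition receptors had 8 lower and 4 higher of 30 in line 3205 and 14 lower and 1 higher in line 264 at 60 min (medians -0.28 and -0.66), and 8 lower and 4 higher of 30 and 10 lower and 1 higher at 120 min (medians -0.60 and -0.75), with the C-type lectin gene Clec4a2 at -2.66 ± 0.34 in line 3205 and -4.70 ± 0.34 in line 264 and the flagellin receptor gene Tlr5 at 6.66 ± 0.37 in line 3205 and 7.90 ± 0.37 in line 264. Fc and immunoglobulin-like receptors had 5 lower and 9 higher of 29 in line 3205 and 6 lower and 9 higher in line 264 at 60 min (medians 0.11 and -0.48), and 4 lower and 8 higher of 30 and 4 lower and 9 higher at 120 min (medians 0.36 and -0.25), with the amplifier of inflammation Trem1 at 5.38 ± 0.32 in line 3205 and 6.68 ± 0.32 in line 264. Chemokine and chemoattractant receptors had 5 lower and 5 higher of 18 in line 3205 and 8 lower and 3 higher in line 264 at 60 min (medians -0.12 and -0.85), and 9 lower and 4 higher of 22 and 7 lower and 2 higher at 120 min (medians -0.74 and -0.88), with the monocyte receptor Ccr2 at -3.25 ± 0.53 in line 3205 and -4.58 ± 0.53 in line 264.

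Leukocyte adhesion and tetraspanin genes had 7 lower and 6 higher of 28 in line 3205 and 5 lower and 7 higher in line 264 at 60 min (medians 0.26 and -0.05), and 4 lower and 7 higher of 28 and 6 lower and 6 higher at 120 min (medians -0.12 and 0.04), with Cd63 at -2.59 ± 0.23 in line 3205 and -8.83 ± 0.23 in line 264, which stood just outside the limit that chose the members. Semaphorins, plexins, ephrins and Notch genes had 4 lower and 4 higher of 23 in line 3205 and 6 lower and 6 higher in line 264 at 60 min (medians -0.11 and 0.19), and 5 lower and 3 higher of 23 and 6 lower and 4 higher at 120 min (medians -0.27 and -0.003), with the plexin gene Plxnd1 at 2.19 ± 0.18 in line 3205 and 2.10 ± 0.18 in line 264 beside the member Plxna1. Genes of lipid handling and nuclear receptor targets had 3 lower and 9 higher of 25 in line 3205 and 6 lower and 2 higher in line 264 at 60 min (medians 0.49 and -0.25), and 3 lower and 8 higher of 25 and 6 lower and 2 higher at 120 min (medians 0.45 and -0.37), with the lipid sensor Pparg at -3.57 ± 0.47 in line 3205 and -5.08 ± 0.47 in line 264. Complement and coagulation genes had 4 lower and 6 higher of 22 in line 3205 and 8 lower and 2 higher in line 264 at 60 min (medians -0.03 and -1.54), and 5 lower and 6 higher of 23 and 5 lower and 2 higher at 120 min (medians -0.12 and -0.91), with C1qb at 6.85 ± 0.75 in line 3205 and -3.07 ± 0.75 in line 264. Genes of antigen presentation and costimulation had 3 lower and 6 higher of 24 in line 3205 and 1 lower and 7 higher in line 264 at 60 min (medians -0.04 and 0.18), and 1 lower and 4 higher of 23 and 0 lower and 4 higher at 120 min (medians 0.02 and 0.09), with the costimulator Cd80 at 2.93 ± 0.23 in line 3205 and 2.33 ± 0.23 in line 264. Osteoclast lineage genes had 3 lower and 3 higher of 15 in line 3205 and 6 lower and 3 higher in line 264 at 60 min (medians -0.20 and -0.36), and 4 lower and 3 higher of 15 and 7 lower and 3 higher at 120 min (medians -0.06 and -1.20), with the integrin gene Itgb3 at 4.37 ± 0.76 in line 3205 and 6.43 ± 0.76 in line 264. The osteoclast gene Ocstamp went the other way, at -2.06 ± 0.61 in line 3205 and -4.04 ± 0.61 in line 264. Genes of the extracellular matrix and its proteases had 2 lower and 5 higher of 20 in line 3205 and 5 lower and 3 higher in line 264 at 60 min (medians 1.15 and -0.40), and 2 lower and 7 higher of 21 and 7 lower and 4 higher at 120 min (medians 1.05 and -0.37), with Timp2 at 2.37 ± 0.47 in line 3205 and -5.39 ± 0.47 in line 264. At 120 min, with the replicate block, 79 list genes were lower in line 3205 and 97 in line 264, against 48 and 63 without it.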

How the data were processed

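RNA libraries of line 3205, line 264 and RAW264.7 (18 in all, 2 per group, grouped by their titles) were used. Per the submitters' processing notes, Trim Galore 0.5.0, STAR 2.4.2, Subread 1.4.6, DESeq2, R 3.4.0 and mm10 are named, with no strand setting. The authors deposited signal values that are read counts divided by 1 size factor per library: 100.0% of values came out whole to within 0.1 read. The authors also deposited log2 fold changes, their p-values and score columns of standard errors and test statistics, and ChIP signal for primary macrophages from 1 library each.

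Here log2(value + 1) was tested with limma 3.58.1 under R 4.3.3, in place of a count test because the files hold normalized values, over genes with a mean of at least 1 (17301 at 60 min and 17450 at 120 min), with Benjamini-Hochberg adjustment over all of them and a threshold of 0.05. A joint fit of all 18 libraries (17367 genes) gave the comparisons of 120 with 60 min and was added after the data were seen. The main fits at 60 and at 120 min each held the 0 min libraries as well. The libraries that chose the members thus entered every SE of the main fits, and were left out with only the groups compared. edgeR 4.0.16 and DESeq2 1.42.0 on the recovered reads, another filter, pseudocount and scaling, a replicate block and fits without each library were alternatives. Same-numbered libraries deviated together (correlation 0.156 to 0.564 at 60 min and 0.224 to 0.556 at 120 min over 15 pairs of groups), so the numbers were taken to pair them in the replicate block. The main fit left this pairing out. Tested on simulated data for line 264 against RAW264.7 at 60 min (17030 genes), 51% of 2-fold and 100% of 8-fold changes were recovered, with 5.03% false calls. For the same lines at 120 min (17198 genes) 37% and 98% were recovered, with 3.57% false calls. Counting intervals are 95% and, like the floor of 3 reads, cover counting error only. Promoters came from a RefSeq table of GRCm38.p6.

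The members and lists were chosen with earlier results of these data known. Genes named are the 15 members highest in RAW264.7, those not called, the largest changes with LPS and those at the limits. Other members were named after their values were seen. One of the gene lists is not reported here on its own.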

Additional observations from a re-analysis of the deposited data

Results flagged for a closer look

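Differences between the edited lines, with an adjusted p below 0.05 by limma (2 libraries per group), drew attention for 12 members. At 60 min the log2 difference of line 3205 from line 264 was 4.84 for Gja1, 4.54 for Ptger4, 4.14 for Gm6421, 3.91 for Flrt2, 3.59 for Pvrl3, 3.45 for Ptchd1 and 2.07 for Pcdh7. It was -3.26 for Gdpd1, -3.18 for Magohb, -1.79 for Ncs1 and -1.68 for Ube2e2. At 120 min it was 5.39 for Gja1, 4.92 for Flrt2, 4.46 for Ptchd1, 4.37 for Ptger4, 3.70 for Pvrl3 and 2.81 for Kitl, then -3.56 for Gdpd1, -1.83 for Ube2e2 and -1.74 for Ncs1. The change of Pcdh7 between 60 and 120 min also differed between line 3205 and RAW264.7, by -4.35 on the log2 scale.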

How the results depend on the processing

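No member value called in the main fit changed direction under any alternative run. Values without a call in the main fit were not checked for direction. Of 6426 values of a member under an alternative, 6272 stayed on their side of the threshold, 129 lost a call and 25 gained one. In the comparisons of an edited line with RAW264.7, 40 members kept every call and 14 lost at least 1. The count of members lower in line 3205 than in line 264 was 4 at 60 min and 3 at 120 min, and 0 at both with only the groups compared (5 at 60 min and 4 at 120 min at an unadjusted p below 0.05). Without single libraries it ran between 1 and 2 at 60 min and between 1 and 3 at 120 min. The count higher at 120 min was 6, and 2 with only the groups compared. Between 60 and 120 min line 3205 had 1 member lower, with 2 under the replicate block, 0 with only the groups compared and 0 to 1 without single libraries. Line 264 had 0 lower, with 1 under the replicate block, by DESeq2 and without the intensity trend. RAW264.7 had 0 higher, with 2 under the replicate block, pseudocount 5 and DESeq2, and 1 by edgeR. With the replicate block the list genes lower at 120 min numbered 79 in line 3205 and 97 in line 264, against 48 and 63. In these the cause was not tested. The choice itself gave 62 genes from replicate 1 alone, 49 of them members, and 48 from replicate 2 alone, 43 of them members. Over all genes, calls lower than RAW264.7 numbered 2146 in line 3205 and 2173 in line 264 at 60 min with the replicate block, against 1118 and 1177 without it, and at 120 min 2190.0 and 2064, against 1045 and 1069. With only the groups compared they numbered 482 and 489 at 120 min. Without single libraries they ran between 513 and 639 in line 3205 and between 591 and 719 in line 264 at 60 min. For line 3205 against line 264 at 60 min the replicate block gave 1832 higher and 1700.0 lower, against 943 and 814. Between 60 and 120 min, with only the groups compared, limma called 0 genes in each line, with 904 lower and 731 higher in line 3205, 942 and 825 in line 264 and 1898 and 1816 in RAW264.7 at an unadjusted p below 0.05. With all groups DESeq2 called 493 lower and 422 higher in line 3205 and 471 and 447 in line 264.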
